A study of Mus musculus with 8 samples.

Results

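The glucocorticoid receptor, the related mineralocorticoid receptor, the enzymes that make and remove their ligand inside cells, and target genes that report receptor activity were examined in newborn mouse brain after maternal cadmium (Cd) exposure. The set holds 9 genes chosen by symbol, by a rule that does not use their measured values, out of 49585 genes in the count table of the alignment to the C57BL/6J (B) genome. All 9 passed the filter on low counts, which left 23113 genes in the test. They are *Nr3c1*, *Nr3c2*, *Fkbp5*, *Tsc22d3*, *Sgk1*, *Per1*, *Zbtb16*, *Hsd11b1* and *Hsd11b2*.

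The animals were B × C F1 females, bred from C57BL/6J dams and CAST/EiJ sires, and taken on postnatal day 1. Dams drank water holding CdCl2 at 0 ppm or 50 ppm from before mating until birth, so any exposure of the pups was through the dam. These data hold no Cd level of the pups, and the paper describes transfer across the placenta as inefficient. Poly(A) RNA of the homogenized whole brain was sequenced for 4 pups per dose, each from a different litter. The model is limited to 1 sex, 1 direction of the hybrid cross and 1 time point, and a homogenate does not separate brain regions or cell types.

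Corticosterone, the main glucocorticoid of mice, enters cells and binds the glucocorticoid receptor, which is held ready for the hormone by heat shock chaperones. The bound receptor moves to the nucleus and acts at glucocorticoid response elements, raising genes such as *Fkbp5*, *Tsc22d3*, *Sgk1*, *Per1* and *Zbtb16*. In brain the mineralocorticoid receptor binds the same hormone with higher affinity. The enzyme encoded by *Hsd11b1* regenerates active hormone from its inert form, and the enzyme encoded by *Hsd11b2* inactivates it, a step known for shielding the fetal brain.

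For none of the 9 genes did the difference between doses exceed the spread between brains. Levels are given as CPM, a gene's reads scaled to a common library size with TMM normalization, and differences as log2 fold changes of 50 ppm over 0 ppm from edgeR's quasi-likelihood test. At an adjusted p threshold of 0.05 the test called 0 of the 9 genes, beside 0.0173% of all genes tested (4 genes, *Bcas1*, *Hoxb6*, *Hoxb7* and *Hoxb8*). Without adjustment, a p under 0.05 was likewise reached by 0 of 9, beside 3.75% of all genes, and DESeq2 and limma-voom also called 0 of 9 after adjustment. No member had doses whose CPM did not overlap, as 2.09% of all genes did. The median log2 fold change was -0.02 over the 9 genes and -0.00328 over all genes tested. Fewer cells of a type and less RNA per cell cannot be told apart in these bulk samples.

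Each brain gave 22916434 to 30708087 reads assigned to genes. Control replicates 1 and 2 stood apart from the other 6 brains in markers of hindbrain and spinal cord. The mean log2 CPM of the 11 tested markers was -2.54 and -1.57 in these 2 brains, 1.14 and 1.28 in the other 2 controls, and between 1.55 and 2.73 at 50 ppm. Without these 2 brains, a choice made after seeing the data, 0 of 9 members were called as well. Neurons, the labelled tissue's defining cells, were well represented, with *Stmn2* at 1512 ± 114 CPM at 0 ppm and 1526 ± 71.2 CPM at 50 ppm (SD, n = 4 per dose), while *Tubb3* was listed at 0 in all 8 brains.

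**Figure D1:**
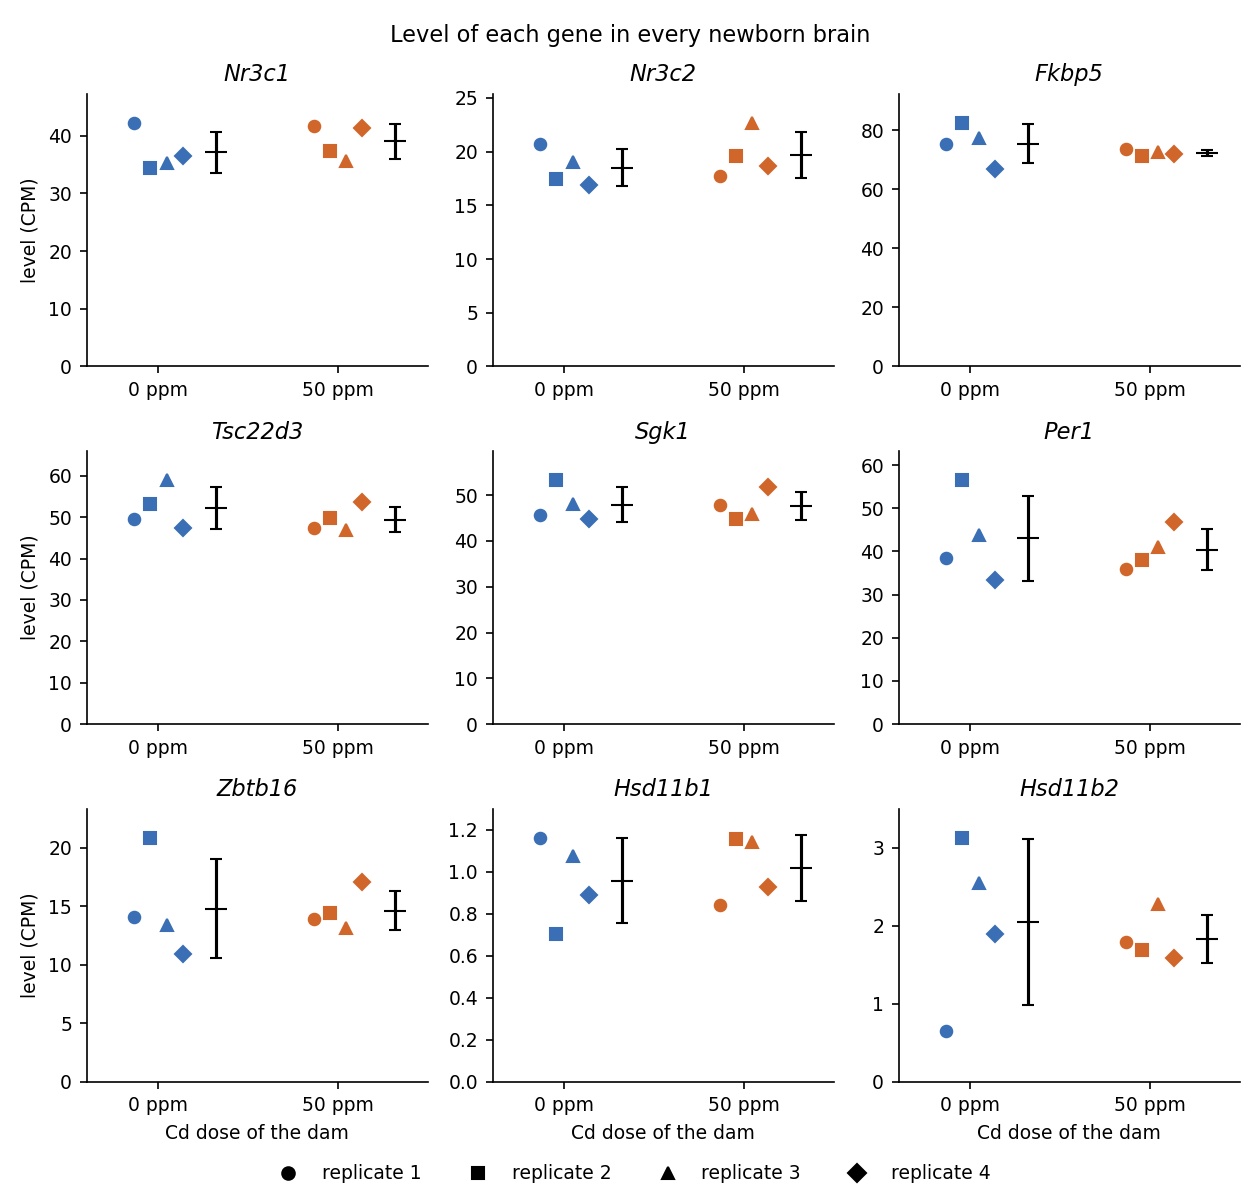
Level in CPM of each of the 9 genes (vertical axis, starting at 0) in the 4 brains per dose, with a marker shape for each replicate and the mean ± SD as a black bar. The doses overlap for every gene, and control replicate 2 is the highest point for *Fkbp5*, *Sgk1*, *Per1*, *Zbtb16* and *Hsd11b2*.

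*Nr3c1* encodes the glucocorticoid receptor and lies on chromosome 18 of GRCm38. It was counted at 42.3, 34.4, 35.2 and 36.5 CPM in control replicates 1 to 4, and at 41.8, 37.4, 35.7 and 41.4 CPM in the 50 ppm replicates. The highest and the lowest brain were both controls, and the doses overlapped. The mean was 37.1 ± 3.53 CPM at 0 ppm and 39.1 ± 3.02 CPM at 50 ppm (SD, n = 4 per dose). The log2 fold change was 0.07 (SE 0.09, edgeR adjusted p = 0.999, exact two-sided permutation p = 0.343). Its 95% interval ran from 7.47% lower to 19.7% higher at 50 ppm. Larger shifts of receptor mRNA lay outside the interval of this fit, which is on dose alone with all 8 brains. With 1 brain left out at a time the log2 fold change ranged from 0.04 to 0.14, and 0.14 (SE 0.09) was without control replicate 1.

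*Nr3c2* encodes the mineralocorticoid receptor (chr8:76899442-77245012, plus strand). Its exons overlap those of the opposite-strand gene *Gm10649* over 3.82% of their length, and no strand setting of the authors' counting is named. The controls had 20.7, 17.4, 19.0 and 16.9 CPM and the exposed brains 17.7, 19.6, 22.7 and 18.7 CPM. Exposed replicate 3 was highest and control replicate 4 lowest, with the other 6 between them. The doses differed by a log2 fold change of 0.09 (SE 0.11, edgeR adjusted p = 0.999), with a 95% interval from 8.88% lower to 24.0% higher.

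The ratio of the 2 receptors was also compared, since it does not depend on library size. *Nr3c1* stood at 1.85 to 2.16 times the CPM of *Nr3c2* in the controls and at 1.57 to 2.35 times in the exposed brains. The mean log2 ratio was 1.00 ± 0.09 and 0.99 ± 0.26 (SD, n = 4 per dose). The difference, -0.01, was within this spread (two-sided exact permutation test, p = 0.971, adjusted over 3 ratios p = 0.971).

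The promoter sequences of the target genes are shown because they carry, or lack, the letters that the receptor and the clock proteins are known to bind. RefSeq promoter windows (GRCm38.p6, 250 bases before to 50 after a start site) were matched by symbol for 6 of the 9 genes, 14 windows in all. They were searched on both strands for the glucocorticoid response element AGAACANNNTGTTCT, its left arm AGAACA, the E-box CACGTG bound by clock proteins, and the cAMP response element TGACGTCA. A full element holds the arm on both strands, so these motifs overlap. Each line runs 5′ to 3′ on the gene's strand, with the match in capitals.

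Sgk1: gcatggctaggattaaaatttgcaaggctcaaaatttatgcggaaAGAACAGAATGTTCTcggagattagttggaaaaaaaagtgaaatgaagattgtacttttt

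Tsc22d3: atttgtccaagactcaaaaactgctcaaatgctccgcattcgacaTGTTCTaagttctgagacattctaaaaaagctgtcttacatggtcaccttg

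Per1: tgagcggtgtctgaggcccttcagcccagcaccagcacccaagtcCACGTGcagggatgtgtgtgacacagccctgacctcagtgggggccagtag

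Fkbp5: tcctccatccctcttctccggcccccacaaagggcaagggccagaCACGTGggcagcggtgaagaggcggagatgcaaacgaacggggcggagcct

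The *Sgk1* stretch lies at chr10:21993656-21993760 (plus strand) and holds the full element, 174 bases before the start site. Of all 32851 promoter windows only 3 (0.00913%) hold that full element, and the *Sgk1* window is 1 of them. The *Tsc22d3* stretch (chrX:140600657-140600752, minus strand) holds a lone arm, written as its reverse complement, 179 bases before the start site. Lone or paired arms are common, at 19.0% of all windows, and were found in 4 of the 14 windows, all of *Sgk1* or *Tsc22d3*. The *Per1* stretch (chr11:69098738-69098833, plus strand) and the *Fkbp5* stretch (chr17:28486268-28486363, minus strand) hold an E-box 160 and 163 bases before their start sites, a motif of 7.15% of all windows that the *Sgk1* window also holds. The cAMP response element, in 1.79% of all windows, was in none of the 14. These matches are letters in a window, not measured binding, and the windows do not reach into introns or distant enhancers.

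*Fkbp5* encodes a cochaperone that is induced by the receptor and lowers its affinity for hormone (chr17:28399094-28517527, minus strand). The controls had 75.5, 82.6, 77.3 and 66.9 CPM. The exposed brains had 73.7, 71.4, 72.9 and 71.9 CPM. All 4 exposed values lay inside the range of the controls, and the highest and the lowest brain were again both controls. In the edgeR fit the log2 fold change was -0.06 (SE 0.07, edgeR adjusted p = 0.999, exact two-sided permutation p = 0.457), with a 95% interval from 13.9% lower to 6.83% higher. The exposed brains varied less than the controls, with a coefficient of variation of 1.42% against 8.64%, where counting error alone gives about 2.21%. This difference in spread was not tested.

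*Tsc22d3* encodes GILZ, an anti-inflammatory leucine zipper protein (chrX:140539528-140600659, minus strand). It was counted at 49.5, 53.2, 58.8 and 47.4 CPM in the controls and at 47.3, 49.9, 46.9 and 53.6 CPM in the exposed brains. Control replicate 3 was the highest brain and exposed replicate 3 the lowest. Exposed over control brains, the log2 fold change was -0.08 (SE 0.08, edgeR adjusted p = 0.999, exact two-sided permutation p = 0.429), with a 95% interval from 16.2% lower to 6.67% higher.

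*Sgk1* encodes a kinase that regulates ion channels and is raised through both receptors (chr10:21882184-21999903, plus strand). The controls had 45.6, 53.2, 48.1 and 44.8 CPM and the exposed brains 47.8, 44.8, 46.0 and 51.7 CPM. The means, 47.9 ± 3.79 and 47.6 ± 3.02 CPM (SD, n = 4 per dose), were within 1 SD of each other. The log2 fold change was -0.01 (SE 0.08, edgeR adjusted p = 0.999), with a 95% interval from 11.7% lower to 11.5% higher. This is the member with the difference closest to 0, and its sign turned positive, at 0.01 to 0.04, when control replicate 2 or exposed replicate 2 or 3 was left out.

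*Per1*, a repressor of the circadian clock that glucocorticoids also induce (chr11:69095217-69109960, plus strand), varied more. The controls had 38.6, 56.4, 43.8 and 33.3 CPM. The exposed brains had 35.8, 38.1, 41.0 and 46.8 CPM. The controls spanned a 1.69-fold range that enclosed all exposed values. The doses differed by a log2 fold change of -0.09 (SE 0.13, edgeR adjusted p = 0.999), with a 95% interval from 22.0% lower to 13.0% higher, and it was 0.07 without control replicate 2.

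*Zbtb16* encodes the zinc finger repressor PLZF, which is induced by glucocorticoids in many cell types and also patterns the limbs and skeleton (chr9:48654297-48836222, minus strand). The controls had 14.0, 20.8, 13.4 and 10.9 CPM and the exposed brains 13.9, 14.4, 13.1 and 17.0 CPM. As for *Per1*, control replicate 2 was highest and control replicate 4 lowest. In the edgeR fit the log2 fold change was -0.02 (SE 0.16, edgeR adjusted p = 0.999), with a 95% interval from 21.4% lower to 24.0% higher. It was 0.19 without control replicate 2, and 0.26 without control replicates 1 and 2 (edgeR unadjusted p = 0.095), and its sign also turned without exposed replicate 1 or 3 (0.01 and 0.04).

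**Figure D2:**
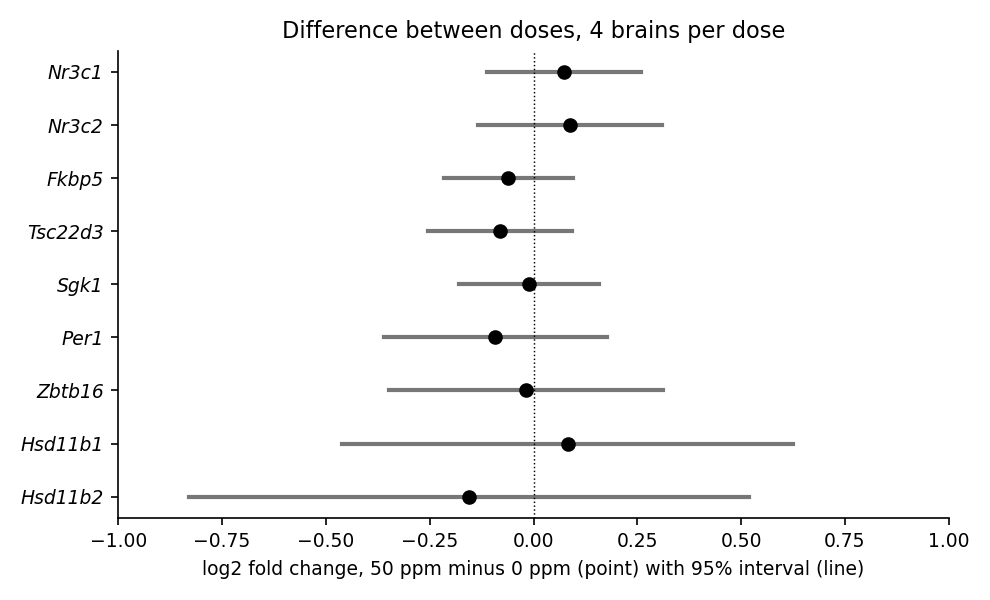
Log2 fold change of 50 ppm over 0 ppm for each gene (points) with its 95% interval from the edgeR fit (lines), 4 brains per dose. Every interval crosses 0, with narrow lines for the receptor and targets such as *Fkbp5* (-0.22 to 0.10) and wide lines for *Hsd11b1* (-0.46 to 0.62) and *Hsd11b2* (-0.83 to 0.52).

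The mRNAs of the 2 enzymes of hormone supply were scarce. *Hsd11b1* (chr1:193221634-193264075, minus strand) was counted at 1.16, 0.71, 1.08 and 0.89 CPM in the controls and at 0.84, 1.16, 1.14 and 0.93 CPM in the exposed brains, from 19 to 34 reads per brain. Its coefficient of variation over the 8 brains, 17.3%, was no larger than the 19.1% that counting error alone gives, so differences between brains were not detectable at this depth. Exposed over control brains, the log2 fold change was 0.08 (SE 0.26, edgeR adjusted p = 0.999), with a 95% interval from 27.3% lower to 54.1% higher, and it was -0.04 without control replicate 2.

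*Hsd11b2* (chr8:105518755-105523988, plus strand) was counted at 0.65, 3.12, 2.55 and 1.90 CPM in the controls and at 1.79, 1.69, 2.28 and 1.59 CPM in the exposed brains, from 19 to 84 reads per brain. The controls differed among themselves by 4.82-fold, from replicate 1 to replicate 2, and enclosed all exposed brains. The log2 fold change was -0.16 (SE 0.32, edgeR adjusted p = 0.999), with a 95% interval from 43.7% lower to 43.3% higher, and it was 0.12 without control replicate 2. Without control replicate 1 it was -0.46 (SE 0.23, edgeR unadjusted p = 0.0613, adjusted p = 0.999). The coefficient of variation over the 8 brains was 37.7%, beside 13.7% from counting error alone.

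The balance of regeneration to inactivation was followed as the ratio of *Hsd11b1* to *Hsd11b2* CPM. It was 1.79 in control replicate 1 and 0.23 to 0.47 in the other 3 controls, beside 0.47 to 0.69 in the exposed brains. The mean log2 ratio was -0.87 ± 1.18 at 0 ppm and -0.81 ± 0.23 at 50 ppm (SD, n = 4 per dose), which differ by 0.06 (two-sided exact permutation test, p = 0.857, adjusted over 3 ratios p = 0.971). Without control replicate 1 the log2 difference was 0.61, and the 3 remaining controls, up to 0.469, lay just below the exposed brains, from 0.471 (two-sided exact permutation test, p = 0.0286, the smallest it can give, adjusted over 3 ratios p = 0.0857). A single ratio can reach no adjusted p below 0.0857 in this design, with or without that brain. The ratio of *Fkbp5* to its inducer *Nr3c1* was 1.79 to 2.40 in the controls and 1.74 to 2.04 in the exposed brains. The log2 difference, -0.13, did not pass the test (two-sided exact permutation test, p = 0.286, adjusted over 3 ratios p = 0.857).

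Levels of different genes were compared as CPM per kb of exon. *Tsc22d3* was highest, at 11.7 ± 0.96, followed by *Sgk1* at 9.74 ± 0.65, *Fkbp5* at 7.82 ± 0.49 and *Per1* at 7.41 ± 1.30 CPM per kb (SD, n = 8). The receptors followed, with *Nr3c1* at 4.96 ± 0.42 and *Nr3c2* at 2.95 ± 0.29 CPM per kb. *Zbtb16* stood at 2.78 ± 0.56, *Hsd11b2* at 1.06 ± 0.40 and *Hsd11b1* at 0.23 ± 0.04 CPM per kb. *Fkbp5* lay above *Per1*, and *Nr3c2* above *Zbtb16*, in only 6 of 8 brains, and the ranges of *Tsc22d3* and *Sgk1* also overlapped although *Tsc22d3* was higher in 8 of 8. The ranges of every other pair of neighbours in this order were apart. The mRNA of the inactivating enzyme thus lay above that of the regenerating enzyme, per length, in 8 of 8 brains. The length joins all annotated exons of a gene, 4.25 kb for *Hsd11b1* and 1.84 kb for *Hsd11b2*. In CPM the order was the opposite in control replicate 1, at 1.16 for *Hsd11b1* (34 reads) and 0.65 for *Hsd11b2* (19 reads).

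**Figure D3:**
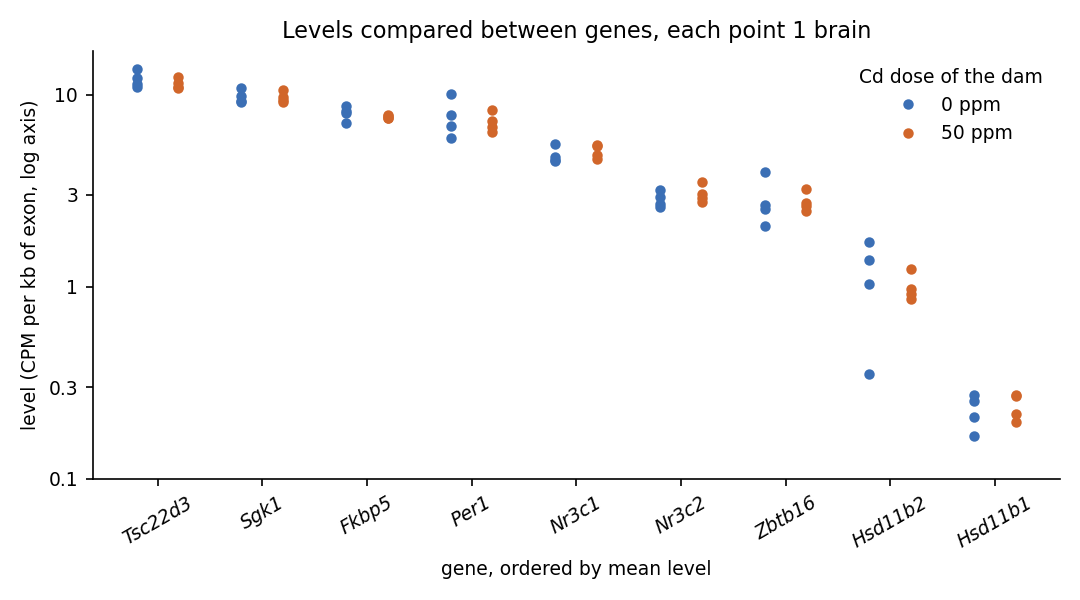
Level of each gene in CPM per kb of exon (vertical log axis), ordered from *Tsc22d3* to *Hsd11b1*, with 1 point per brain and a colour per dose. The doses overlap for each gene, and *Hsd11b1* at 0.17 to 0.27 lies below all others.

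The target genes differed among the controls. Control replicate 2 was highest for 4 of the 5 targets, and control replicate 4 was lowest for *Fkbp5*, *Sgk1*, *Per1* and *Zbtb16*. The summed level of the 5 targets was 223, 266, 241 and 203 CPM in the controls and 219, 219, 220 and 241 CPM in the exposed brains. The controls therefore held both the highest and the lowest sum. Over the tested genes with at least 5 CPM on average, the coefficient of variation over 8 brains of *Zbtb16* (20.3%) and *Per1* (17.5%) exceeded that of 95.7% and 92.7% of genes, while that of *Fkbp5* (6.26%) exceeded that of 24.3%.

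**Figure D4:**
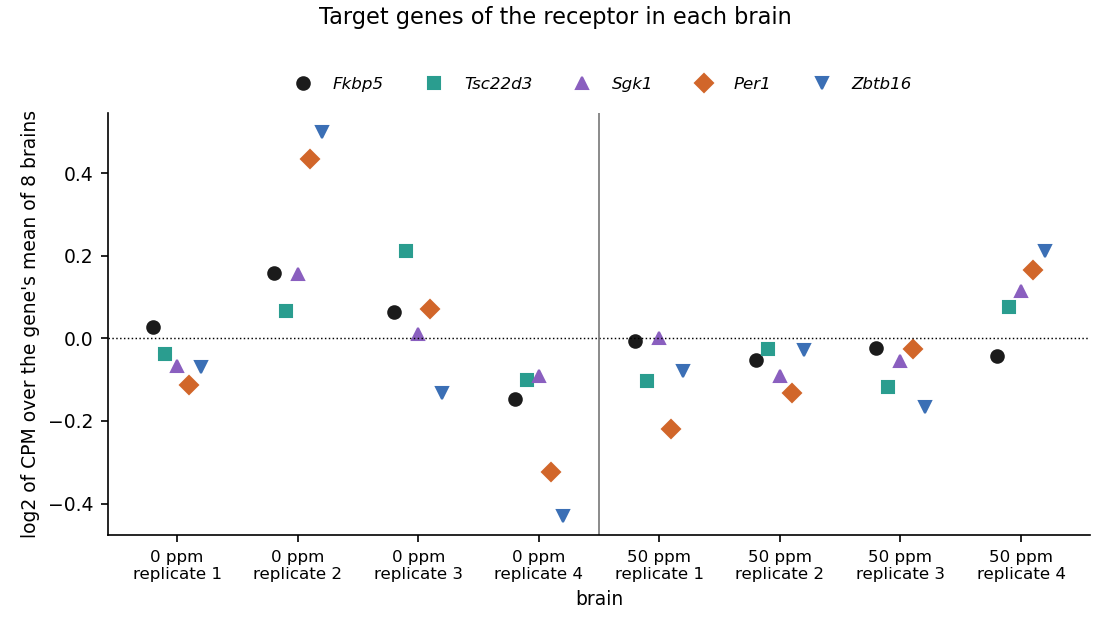
Level of the 5 target genes in each of the 8 brains, as log2 of CPM over the gene's mean of all brains (vertical axis), with controls left of the line and exposed brains right of it. All 5 markers lie above 0 in control replicate 2 and below 0 in control replicate 4, with *Zbtb16* and *Per1* farthest from 0.

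All 10 pairs of targets had a positive Pearson correlation of log2 CPM over the 8 brains, from 0.43 for *Tsc22d3* and *Zbtb16* to 0.89 for *Per1* and *Zbtb16*. Over all pairs of the 11775 genes with a mean of at least 5 CPM, 50.1% had a positive correlation and 0.622% had r of 0.86 or more. After adjustment over the 10 target pairs, 3 passed, and the 0.86 above is the lowest r among these 3. That cutoff was taken from the passing pairs, so the 0.622% is a description and no test of them. The 3 pairs join the same 3 genes and are not independent of each other. *Per1* and *Zbtb16* had r = 0.89 (exact permutation p = 0.0043, adjusted p = 0.0206) and Spearman's rho = 0.62 (exact permutation p = 0.115, adjusted p = 0.221). *Sgk1* and *Per1* had r = 0.87 (exact permutation p = 0.0040, adjusted p = 0.0206) and rho = 0.86 (exact permutation p = 0.0107, adjusted p = 0.107). *Sgk1* and *Zbtb16* had r = 0.86 (exact permutation p = 0.0062, adjusted p = 0.0206) and rho = 0.60 (exact permutation p = 0.132, adjusted p = 0.221).

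These correlations rested on few brains. Without the 2 brains farthest from the median of the first gene, r fell to 0.50 for *Per1* and *Zbtb16*, 0.47 for *Sgk1* and *Per1*, and 0.31 for *Sgk1* and *Zbtb16*. None of the pairs with an unadjusted p under 0.05 kept it. Leaving out a gene's 2 most extreme brains narrows its range, which by itself tends to lower r. No pair passed without control replicate 2, where r of the 3 pairs above was 0.72 to 0.74. None passed without control replicate 4 either, although their r there, 0.846 to 0.852, had changed little. Without control replicate 3, 5 pairs passed. Without exposed replicate 4, 2 pairs passed, and they were other pairs: *Fkbp5* with *Sgk1* and *Fkbp5* with *Per1* (exact permutation test, adjusted p = 0.0446 each). The 3 pairs above then had r of 0.85 to 0.88 and adjusted p from 0.062 to 0.0764 (exact permutation test). For *Tsc22d3* and *Zbtb16*, by contrast, r was 0.88 without the 2 brains farthest from the median (exact permutation p = 0.0222). After each dose's mean was subtracted, all 10 correlations stayed positive, with r = 0.91, 0.87 and 0.86 for the 3 pairs. Within the 4 exposed brains alone, as a description, *Fkbp5* had r = -0.71 with *Tsc22d3*, -0.53 with *Zbtb16*, -0.49 with *Per1* and 0.02 with *Sgk1*. Every pair among the other targets had r from 0.67 to 0.97 there. The coefficient of variation of *Fkbp5* in these brains, 1.42%, lay below the 2.21% of counting error. Its r values there cannot be told from counting noise. Choroid plexus markers other than *Kl* were highest in control replicate 2. The 7 markers summed to 1217 CPM there beside 359 to 811 CPM in the other 7 brains. Most of that sum was *Ttr*, at 1128 CPM beside 325 to 747. *Kl* stood at 3.76 CPM there beside 3.60 to 4.41 CPM, and *Kcne2*, at 6.58 CPM, was barely above the 6.36 CPM of exposed replicate 2. The part of choroid plexus in the correlations was not tested.

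Some genes outside the set followed a member closely. Among 11774 other tested genes with at least 5 CPM on average, those most like *Nr3c1* over the 8 brains were *Slc16a1*, a monocarboxylate transporter (Pearson r = 0.97, Spearman's rho = 0.95), *Ccn3* (r = 0.97, rho = 0.95) and *Snph*, which encodes syntaphilin (r = 0.94, rho = 0.95). Those most like *Fkbp5* were *Bud31*, *Sac3d1* and *Peak1*, each with r between 0.93 and 0.94. Those most like *Tsc22d3* were *Map3k11*, *Tspan9* and *Kitl*, with r from 0.94 to 0.96. The genes were picked as the highest of many on 8 brains, so these values are a description.

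The wider pathway was followed with 6 lists, 88 genes in all, of which 86 were tested. None was called, and 2 had an unadjusted p under 0.05, both higher at 50 ppm (2.31% of all genes tested were so and 1.44% were lower). The 12 chaperones and cochaperones that hold the receptor had a median log2 fold change of -0.01, with 6 positive and 6 negative. *Fkbp4*, the cochaperone that takes the place of the *Fkbp5* product once hormone binds, had 227 ± 9.00 CPM at 0 ppm and 211 ± 16.7 CPM at 50 ppm (log2 fold change -0.11, SE 0.07, edgeR adjusted p = 0.999). *Hspa8* (0.08) and *Ppid* (-0.07) came next by p. The 10 coactivators and corepressors of steroid receptors had a median of -0.03, and *Ep300* (-0.08) and *Crebbp* (0.08), which encode histone acetyltransferases, did not pass the test.

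The 24 other glucocorticoid-induced genes had a median log2 fold change of -0.05, with 9 positive and 15 negative. *Angptl4*, a secreted inhibitor of lipoprotein lipase, was counted at 14.9, 9.82, 7.94 and 14.0 CPM in the controls and at 17.3, 16.6, 12.4 and 15.2 CPM in the exposed brains. The doses overlapped, because exposed replicate 3 lay below 2 of the controls. Its log2 fold change was 0.40 (SE 0.17, edgeR unadjusted p = 0.0287, adjusted p = 0.999). *Ndrg2*, a gene of astrocytes, was at 203 ± 36.9 CPM and 240 ± 25.7 CPM (SD, n = 4 per dose), with a log2 fold change of 0.24 (SE 0.11, edgeR unadjusted p = 0.0346, adjusted p = 0.999). The 6 astrocyte markers summed to 559 to 736 CPM in the controls and 731 to 874 CPM in the exposed brains, with 4 of 6 at an unadjusted p under 0.05, and their part in the value of *Ndrg2* was not tested. *Dusp1*, a phosphatase, stood at 17.6 ± 1.34 and 15.3 ± 0.86 CPM (log2 fold change -0.20, SE 0.10, edgeR adjusted p = 0.999).

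The 17 tested genes of the stress axis, steroid synthesis and hormone export had a median log2 fold change of -0.06, and *Serpina6*, the plasma carrier of corticosterone, was listed at 0 in all 8 brains. *Abcb1a*, which encodes a pump that carries some glucocorticoids out of brain endothelium, had 16.0 ± 2.56 CPM at 0 ppm and 19.3 ± 3.77 CPM at 50 ppm (log2 fold change 0.27, SE 0.14, edgeR adjusted p = 0.999). Its exons overlap an opposite-strand gene over 10.1% of their length. *Abcb1b* (0.29) and the scarce *Avpr1b* (-0.92, 95% interval -2.63 to 0.78) did not pass the test either.

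Among the 14 tested clock genes other than *Per1* the median log2 fold change was -0.00278, with 7 positive and 7 negative. *Per3* was listed at 0 in all 8 brains, as *Serpina6* and the neuron marker *Tubb3* were, so a listed 0 may not mean absence. The smallest p belonged to *Dbp* (-0.21), *Per2* (-0.14) and *Cry1* (-0.08). The 9 immediate early genes, which rise within minutes of stimulation, had a median of 0.04. *Npas4* (0.40, edgeR unadjusted p = 0.0595), *Arc* (-0.23) and *Egr1* (0.15) had the smallest p of that list.

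**Figure D5:**
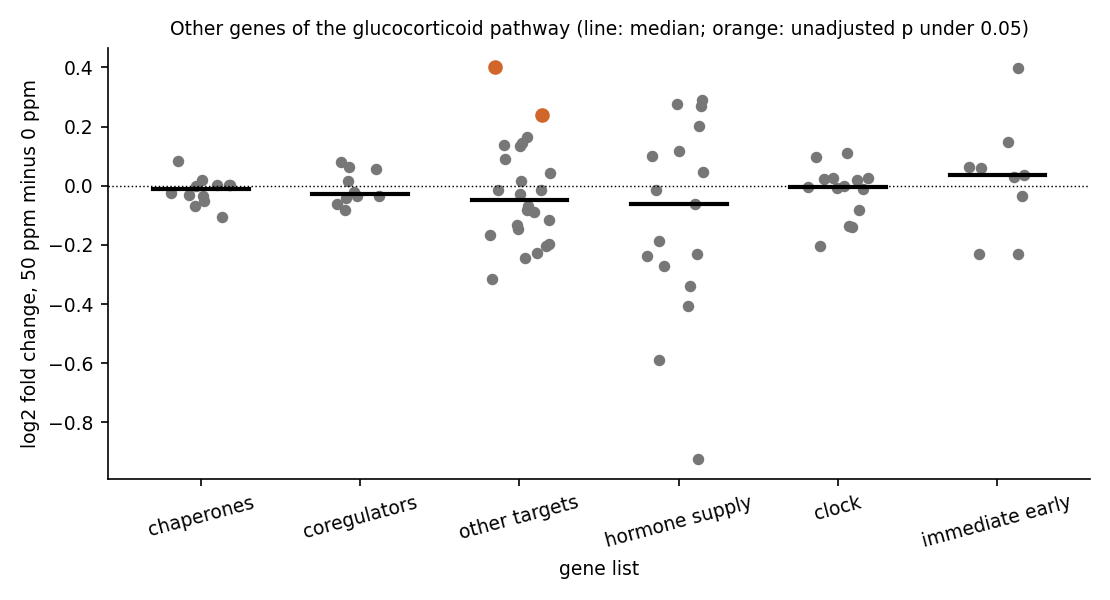
Log2 fold change of 50 ppm over 0 ppm for each of the 86 tested genes of the 6 pathway lists (points), with the median of each list as a black line. Medians lie between -0.06 and 0.04, and the 2 orange points are *Angptl4* and *Ndrg2*, the genes with an unadjusted p under 0.05.

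Of the cell type markers, *Hoxb8* and *Bcas1* were called after adjustment, and no astrocyte, microglia, vessel or pituitary marker was. Of 11 tested hindbrain and spinal cord markers 9 had an unadjusted p under 0.05, all higher at 50 ppm. Of 10 oligodendrocyte markers 7 did, all higher. The share over all genes tested was 2.31%. Both lists hold genes that the paper reported as changed in these same brains, such as *Hoxb8*, *Bcas1*, *Mbp* and *Mag*. These counts are therefore not an independent readout. Of the astrocyte markers 4 of 6 had an unadjusted p under 0.05, of the microglia markers 3 of 6, of the vessel markers 2 of 8 and of the pituitary markers 1 of 3, all higher at 50 ppm. None of the 5 neuron, 7 choroid plexus, 6 blood and 6 meninges markers did, and of 5 lymphocyte markers 1 was lower. The pituitary marker was *Cga*, at a mean of 0.06 CPM at 0 ppm and 0.30 CPM at 50 ppm. The lymphocyte marker was *Cd3d*, at 0.06 CPM at 0 ppm and 0 CPM at 50 ppm. In every library 3 reads made at least 0.098 CPM, so both differences rest on few reads. Summed hindbrain and spinal cord markers stood at 6.28 and 7.74 CPM in control replicates 1 and 2, at 54.6 and 64.3 CPM in the other 2 controls and at 53.7 to 176 CPM in the exposed brains. Summed oligodendrocyte markers ran from 133 to 168 CPM in the controls and from 170 to 251 CPM in the exposed brains. The part of these cells in the levels of the 9 genes was not tested. In the fit with the hindbrain and spinal cord score as a covariate, 0 of 9 were called. That score lay at 1.28 or below in the controls and at 1.55 or above at 50 ppm. The fit therefore compares no brains of both doses at the same score, and separates score from dose only by assuming a linear trend.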

How the data were processed

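Members and gene lists were chosen with earlier results of these data known. The deposited values are read counts of each gene, without normalization. The authors checked reads with FastQC, trimmed the first bases, aligned them with STAR to the B genome (GRCm38) and counted them with htseq-count of HTSeq. The study's methods name the Ensembl release of the genome, but tool versions and the strand setting were not given in the sources used here. Reads of the CAST/EiJ allele were aligned to the B genome too, and any loss of them was not tested. The table of the C genome alignment was not used, since no table pairs its identifiers with gene names. Gene names were found for 49326 of 49585 identifiers, and positions come from the GRCm38 annotation of GENCODE. Promoter sequences come from RefSeq.

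Genes at 0 in over 2/3 of the 8 libraries were not tested. Counts were normalized by TMM and tested with glmQLFit and glmQLFTest of edgeR 4.0.16 in R 4.3.3, on dose alone, and p-values were adjusted by Benjamini-Hochberg over every tested gene. The standard error is the absolute log2 fold change over the square root of F. Log2 CPM used a prior count of 2. Single values were tested over the 70 labellings of 4 against 4 brains (smallest two-sided p 0.0286), and correlations over all orders of the brains. Alternatives used DESeq2 1.42.0 and limma 3.58.1. The code was tested on simulated data. No 2 libraries of a dose agreed within sampling noise (chi-square per degree of freedom 8.67 to 21.1). Intervals of a fold change come from the spread between brains.

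The genes named are the 9 members, the 3 genes of each pathway list with the smallest p, the defining genes of marker lists, the 3 genes most like *Nr3c1*, *Fkbp5* and *Tsc22d3*, genes called over all genes, and genes listed at 0. A gene that this rule names is not reported here. Lists were 6 of the pathway and 11 of cell type markers.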

Additional observations from a re-analysis of the deposited data

Results flagged for a closer look

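Of 26 groups of 4 brains (each of the 9 genes, 3 ratios and the target sum, at each dose), 2 held a brain far from the other 3. Chance alone gives about 1 such group in 20. The ratio of *Hsd11b1* to *Hsd11b2* CPM was 1.79 in control replicate 1 and 0.23 to 0.47 in the other 3 controls, on 34 and 19 reads of the respective genes in that brain. The summed level of the 5 target genes was 241 CPM in exposed replicate 4, while the other 3 exposed brains lay within 219 to 220 CPM.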

How the results depend on the processing

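None of the 9 members was called under any of the 16 alternatives, where their adjusted p lay between 0.947 and 0.9999. *Nr3c1* and *Nr3c2* stayed positive and *Tsc22d3* negative under all 16, though their sizes moved. Signs of other uncalled members turned. Limma-voom gave 0.0109 for *Sgk1*, 0.0167 for *Per1*, 0.111 for *Zbtb16* and 0.0742 for *Hsd11b2* (log2 fold changes). The hindbrain and spinal cord score as a covariate gave 0.0196 for *Fkbp5*, 0.0259 for *Sgk1*, 0.101 for *Per1*, 0.301 for *Zbtb16*, 0.146 for *Nr3c1*, 0.218 for *Nr3c2* and -0.483 for *Hsd11b2*. The score did not overlap between the doses, so that fit separates it from dose only by assuming a linear trend. Leaving out control replicates 1 and 2, a choice made after seeing the data, gave 0.00275 for *Fkbp5*, 0.0299 for *Sgk1*, 0.0595 for *Per1* and 0.256 for *Zbtb16*.

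With 1 brain left out at a time, values ranged from 0.0394 to 0.142 for *Nr3c1*, 0.0184 to 0.146 for *Nr3c2*, -0.114 to -0.0153 for *Fkbp5*, -0.125 to -0.0183 for *Tsc22d3*, -0.0529 to 0.0426 for *Sgk1*, -0.195 to 0.0653 for *Per1*, -0.137 to 0.189 for *Zbtb16*, -0.0370 to 0.186 for *Hsd11b1* and -0.455 to 0.116 for *Hsd11b2*. The log2 ratio differences ranged from -0.0921 to 0.102 (*Nr3c1* over *Nr3c2*) and -0.325 to 0.612 (*Hsd11b1* over *Hsd11b2*). A single ratio adjusted over 3 cannot go below 0.0857 here, so that none passed says nothing about stability. The number of target pairs that passed was 3, and 0 to 5 with 1 brain left out, not always the same pairs. It was 0 without control replicates 1 and 2.

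Over all genes 4 were called, 18 by DESeq2, 52 with no filter, 2 with a minimum of 10 counts in 4 or more libraries, 1 by limma-voom, 7 without control replicates 1 and 2, and 2 to 20 with 1 brain left out (20 without control replicate 3, 8 without exposed replicate 3). The cause was not tested. Pathway genes with an unadjusted p under 0.05 numbered 2, but 8 with the score as a covariate and 8 without control replicates 1 and 2. They numbered 1 with the higher count minimum, 1 with edgeR's robust fit, and 1 to 5 with 1 brain left out. The share over all genes was counted only for the main fit (3.75%), so changes in these counts cannot be tied to the pathway. The C genome alignment was not run. No paired analysis was possible because the replicate numbers were given in accession order and the labels tie no brains across doses. Depth limited *Hsd11b1*, whose spread was no larger than counting error, while *Hsd11b2* varied between brains beyond it.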
